A study of Mus musculus with 4 samples.

Results

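Transcripts of the T cell receptor complex and of T cell surface and signalling genes were examined in sorted alveolar macrophages of Bach2KO and WT mice, as a check of how much T cell RNA the sorted samples carried. The 10 genes were listed by name, with no threshold on their values, though earlier results of these data were known when the list was made: Cd3d, Cd3e, Cd3g, Cd247, Lck, Lat, Cd2, Thy1, Cd4 and Cd8a, of 19751 genes with a matched probe on the array. All 10 had a probe, 13 probes in all, because Cd2, Cd4 and Cd8a had 2 each. The Bach2KO sample came from 3 mice in the series design text and from 4 in the treatment protocol, and the WT sample from 8 mice. The Bach2KO mice lack Bach2, a repressor of the CNC leucine zipper family. The allele, the strain, the age of the mice and the sorting gate are not given in the sources used here. For each genotype 1 RNA sample was split in 2, and each part was amplified, labelled and hybridised, giving 2 Bach2KO and 2 WT arrays. Repeat arrays therefore show technical spread alone. No difference between genotypes had a replicate check, none has a p-value, and each SD is over 2 arrays of 1 RNA sample.

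The T cell receptor reaches the cell surface together with the CD3 chains (CD3 delta, epsilon and gamma) and the zeta chain, which carry the activation motifs called ITAMs. The kinase Lck, held at the CD4 or CD8 coreceptor, phosphorylates these motifs, the kinase ZAP-70 binds them, and the membrane adaptor LAT then assembles the downstream signalling complex. Macrophages use similar machinery behind Fc receptors and lectins, with the ITAM adaptors encoded by Fcer1g and Tyrobp, the kinase Syk and the LAT-like adaptor encoded by Lat2. The CD3 chains define T cells more closely than CD2, Thy-1, CD4 or CD8, which mouse cells of other lineages can also carry.

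Each array held 27125 to 27918 of 39429 probes well above background, and no non-control spot was saturated. Signal is given as log2 of the processed signal minus the 75th percentile of the same array, so that a value of 0 is the signal of that percentile. The percentile itself was 1036 and 979 on the Bach2KO arrays and 1267 and 1513 on the WT arrays (processed signal). The lowest signal of any probe well above background was -6.17 and -5.98 on the Bach2KO arrays, and -6.14 and -6.56 on the WT arrays (log2). A gene counted as measured where both Bach2KO arrays or both WT arrays held it well above background, which left 15122 genes. It was called higher or lower where every pairing of 1 array per genotype, 4 in all, differed 2-fold or more the same way. A gene dim on both arrays of a genotype also needed a lower bound of 2-fold. By that rule of size, which is not a test, 8.37% of measured genes were higher and 5.90% lower in Bach2KO. Bach2 gave no check of the labels, because its probe was well above background only on Bach2KO array 1 and WT array 2, with log2 signals of -5.16 and -8.13 in Bach2KO, against -6.32 and -6.28 in WT. Siglecf, a defining surface lectin of alveolar macrophages, had log2 signals of 1.72 and 1.61 in Bach2KO, against 5.38 and 5.25 in WT. The arrays of a genotype lay at adjacent positions on 1 slide (2 and 1 for Bach2KO, 4 and 3 for WT), so genotype cannot be told apart from position.

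Among the CD3 chains, Cd3d and Cd3g were seen above background in Bach2KO alone, whereas Cd3e was bright and nearly equal in both genotypes. Cd3d, which encodes CD3 delta (transcript NM_013487), had log2 signals of -3.81 and -3.65 in Bach2KO, against -6.48 and -6.63 in WT. Both WT arrays lay below the lowest signal well above background, so the difference is known only as a bound: Cd3d was at least 6.15-fold higher in Bach2KO. Cd3g, which encodes CD3 gamma (NM_009850), had log2 signals of -4.95 and -4.92 in Bach2KO, against -8.18 and -8.59 in WT, and was at least 2.67-fold higher. In processed signal that was 33.6 and 32.4 units in Bach2KO, against 4.37 and 3.92 units in WT, where the scanner software's own error of the spot was 99.8% and 99.7% of its signal, compared with 14.4% and 15.2% in Bach2KO. The Bach2KO arrays held Cd3g only 1.23 and 1.06 log2 units above the lowest signal well above background. For both genes the Bach2KO and WT arrays did not overlap, which the rule already requires of any called gene. Both genes also passed the filter only through the Bach2KO arrays.

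Cd3e, which encodes CD3 epsilon (NM_007648), went another way. Its log2 signals were 1.49 and 1.62 in Bach2KO, against 1.35 and 1.41 in WT, a difference of 0.17 with array pairs from 0.08 to 0.26, and it was not called. Its probe stood 7.66 and 7.59 log2 units above the lowest signal well above background in Bach2KO, and 7.49 and 7.97 units above it in WT. Cd3e had only this probe, so whether the signal is CD3 epsilon transcript was not tested.

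Cd247, the zeta chain gene (NM_031162), was well above background on no array and was therefore not measured. Its log2 signals were -7.89 and -6.52 in Bach2KO, against -7.68 and -7.67 in WT, and these ranges overlapped. The summed signal of Cd3d, Cd3g and Cd247 was 0.108 and 0.124 in Bach2KO, against 0.0195 and 0.0176 in WT, in units of the array's 75th percentile. None of these genes was well above background in WT, so the WT sums are not measured levels and the size of that gap is not known. With Cd3e the sum was 2.92 and 3.19 in Bach2KO, against 2.57 and 2.68 in WT. Whether these signals came from T cells was not tested. In such bulk RNA, fewer T cells, less of these transcripts per cell and another source of the signal cannot be told apart.

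**Figure D1:**
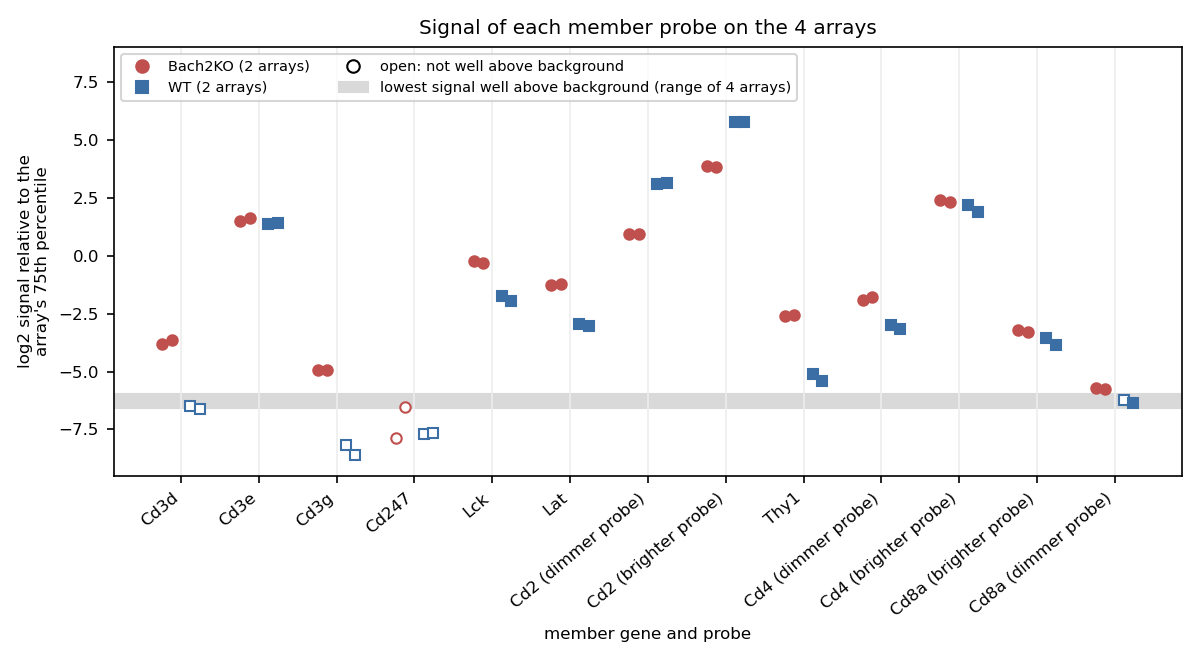
Log2 signal of each of the 13 probes relative to the array's 75th percentile, with Bach2KO arrays (circles) left of WT arrays (squares) and 1 point for each array. Open points were not well above background, as for Cd3d and Cd3g in WT and for Cd247 on all 4 arrays, and the grey band spans the 4 arrays' lowest signals well above background.

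The CD3 genes Cd3g, Cd3d and Cd3e are neighbours on chromosome 9, and their upstream sequences are shown because 2 of these neighbours were called and the other was not. Lat, described next, is added because its window holds a sequence related to the Bach2 recognition site, as does that of Cd247, not shown. Each is the 250 bases before an annotated transcript start, from RefSeq on GRCm38.p6, 5′ to 3′ along the gene. Capitals mark TGCTGA, part of the site that Bach2 is known to bind with small Maf proteins, and GGAAGT, a core bound by ETS factors, on either strand.
Cd3d promoter, chr9:44981536-44981785 (+ strand, GRCm38.p6): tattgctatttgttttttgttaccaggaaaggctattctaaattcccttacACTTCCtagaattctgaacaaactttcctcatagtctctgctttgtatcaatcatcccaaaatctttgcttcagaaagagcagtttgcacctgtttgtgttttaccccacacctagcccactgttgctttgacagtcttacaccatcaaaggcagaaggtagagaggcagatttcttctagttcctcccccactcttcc
Cd3g promoter, chr9:44980432-44980681 (- strand, GRCm38.p6): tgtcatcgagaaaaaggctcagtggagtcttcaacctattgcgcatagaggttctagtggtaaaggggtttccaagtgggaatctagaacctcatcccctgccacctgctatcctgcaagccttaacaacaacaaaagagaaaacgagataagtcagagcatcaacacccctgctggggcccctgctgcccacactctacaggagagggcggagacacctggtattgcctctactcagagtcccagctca
Cd3e promoter, chr9:45009612-45009861 (- strand, GRCm38.p6): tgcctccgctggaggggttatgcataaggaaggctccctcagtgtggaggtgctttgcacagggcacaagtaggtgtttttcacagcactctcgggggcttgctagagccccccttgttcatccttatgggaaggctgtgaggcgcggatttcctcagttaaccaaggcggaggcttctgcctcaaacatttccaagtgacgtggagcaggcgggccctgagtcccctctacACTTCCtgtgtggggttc
Lat promoter, chr7:126369569-126369818 (- strand, GRCm38.p6): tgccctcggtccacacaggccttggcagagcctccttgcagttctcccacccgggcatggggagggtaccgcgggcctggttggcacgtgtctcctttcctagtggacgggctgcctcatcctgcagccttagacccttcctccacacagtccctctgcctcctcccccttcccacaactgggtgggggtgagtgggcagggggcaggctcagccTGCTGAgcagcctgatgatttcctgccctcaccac
Windows were found for 7 of the 10 genes, 8 in all as Lck had 2, and none for Cd2, Thy1 or Cd4. TGAGTCA, another part of that site, was in 0 of these 8 windows and in 4.46% of 32851 windows of all genes, with both strands searched. TGCTGA, which overlaps TGAGTCA in the full site, was in 2 of 8 (Lat and Cd247) and in 16.1% of all. In Lat its leftmost base lay 35 bases before the start. GGAAGT was in 5 of 8 (Cd247, both windows of Lck, Cd3d and Cd3e) and in 19.7% of all, and its leftmost base lay 18 bases before the start of Cd3e and 199 before that of Cd3d. Cd3g held none of these letters in its window.

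The proximal signalling genes Lck and Lat were higher in Bach2KO and were well above background on all 4 arrays. Lck, the kinase that phosphorylates the CD3 ITAMs (NM_010693), had log2 signals of -0.24 and -0.30 in Bach2KO, against -1.74 and -1.94 in WT. Lck was 2.97-fold higher, with array pairs from 2.72-fold to 3.26-fold. Lat, the membrane adaptor (NM_010689), had log2 signals of -1.27 and -1.21 in Bach2KO, against -2.96 and -3.04 in WT. That was 3.39-fold higher, with array pairs from 3.23-fold to 3.55-fold. In processed signal Lck was at 878 and 796 in Bach2KO, against 379 and 394 in WT.

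Cd2 was the member that differed downwards. It encodes an adhesion receptor of lymphocytes, and its transcript (NM_013486) was bright in both genotypes. The brighter of its probes had log2 signals of 3.85 and 3.82 in Bach2KO, against 5.76 and 5.77 in WT, 3.81-fold lower. In processed signal it was at 14929 and 13830 in Bach2KO, against 68645 and 82638 in WT. The other probe, printed at 10 spots, had log2 signals of 0.94 and 0.95 in Bach2KO, against 3.11 and 3.15 in WT, 4.55-fold lower. The processed signals of its 10 spots ranged from 1873 to 2128 on Bach2KO array 1 and from 1775 to 1999 on Bach2KO array 2, against 10427 to 12045 on WT array 1 and 12203 to 14825 on WT array 2. No spot of either genotype fell in the other's range, and the probes differed by 0.25 in their log2 difference. The direction of Cd2 was therefore opposite to that of Cd3d, Cd3g, Lck, Lat and Thy1 in the same RNA.

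Thy1, which encodes a glycolipid-anchored surface protein of T cells, neurons and fibroblasts (NM_009382), had log2 signals of -2.62 and -2.55 in Bach2KO, against -5.09 and -5.43 in WT. Thy1 was 6.38-fold higher (log2 -2.59 ± 0.05 in Bach2KO and -5.26 ± 0.24 in WT). The WT arrays held Thy1 only 1.05 and 1.13 log2 units above the lowest signal well above background, and with normexp correction the log2 difference of Thy1 was 1.63 in place of 2.67. Because Thy1 is carried by fibroblasts as well, markers of that type are given beside it. Of 9 fibroblast markers, 5 were measured and 1 of these was higher, the growth factor receptor gene Pdgfra, at least 6.33-fold. Their summed signal ranged from 0.385 to 0.460 in Bach2KO and from 0.218 to 0.243 in WT. The defining collagen gene Col1a1 did not pass the filter, and the part of fibroblast RNA in the Thy1 result was not tested.

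The coreceptor genes were not called by their brighter probes. Cd4 (NM_013488), whose product binds MHC class II and is also found on some myeloid cells, had log2 signals of 2.39 and 2.29 in Bach2KO, against 2.19 and 1.90 in WT by its brighter probe. That difference of 0.30, with array pairs from 0.11 to 0.49, did not reach 2-fold. The dimmer Cd4 probe, printed at 10 spots, gave log2 signals of -1.92 and -1.80 in Bach2KO, against -2.98 and -3.15 in WT, 2.30-fold higher with array pairs from 2.08-fold to 2.55-fold. Its spots ranged from 249.2 to 331.6 over the Bach2KO arrays, against 138.5 to 220.3 over the WT arrays, without overlap (processed signal). The 2 probes of Cd4 thus disagreed by 0.91 in their log2 difference, and the gene's call depends on which is taken.

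Cd8a, whose product binds MHC class I and also marks some dendritic cells, was dim. The probe assigned to NM_009857 had processed signals of 111.9 and 99.9 in Bach2KO, against 107.2 and 105.1 in WT, which overlap. After scaling its log2 signals were -3.21 and -3.29 in Bach2KO, against -3.56 and -3.85 in WT, a difference of 0.45. The probe assigned to NM_001081110, printed at 10 spots, had log2 signals of -5.71 and -5.76 in Bach2KO, against -6.24 and -6.34 in WT, a difference of 0.56. It was well above background on both Bach2KO arrays and on WT array 2. On WT array 1 only 1 of its 8 usable spots was. Neither probe was called. Of 11 dendritic cell markers 7 were measured and 1 was higher (Bst2, an interferon-induced membrane protein, by 2.25-fold), a call that ended with median centring (1.07) and with spike-in scaling (0.45). The summed signal of the measured dendritic cell markers was 52.0 to 52.2 in Bach2KO and 62.1 to 71.8 in WT. Without Siglech, left out after the values were seen, it was 17.2 to 17.5 in Bach2KO and 14.8 to 16.6 in WT. Siglech was read by its brighter probe, and its other probe was above background on no array.

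**Figure D2:**
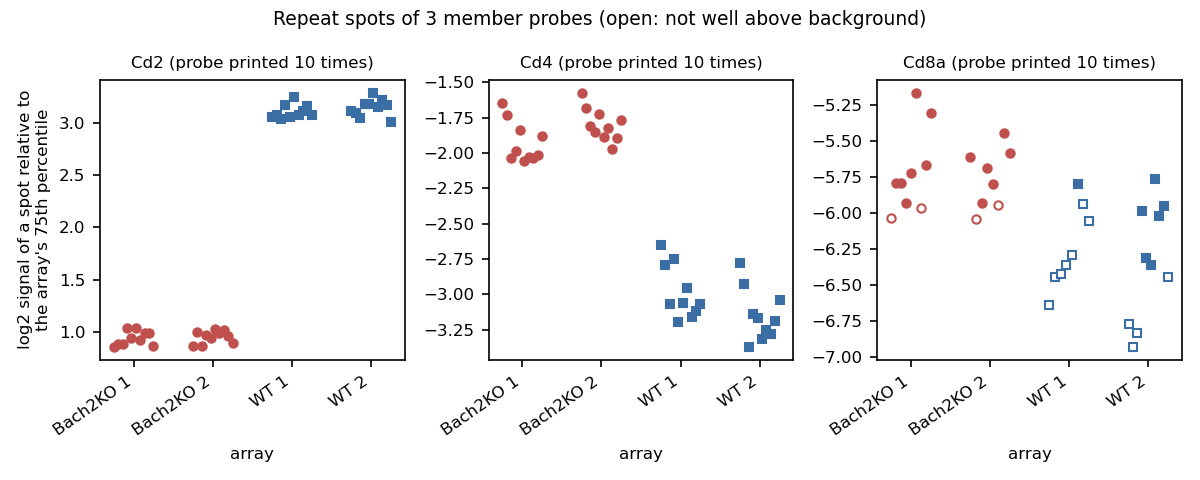
Log2 signal of each usable spot, relative to the array's 75th percentile, for the 3 probes printed at 10 spots, with Bach2KO arrays left of WT arrays. Spots of Cd2 lie lower and spots of Cd4 higher in Bach2KO than in WT without overlap, whereas spots of Cd8a overlap and many are not well above background (open).

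The median difference between genotypes was above 0 among dim genes, which bears on Cd247 and Cd8a. Over 3887 genes that were well above background on no array it was 0.23 (quartiles 0.10 and 0.35), and the 0.47 of Cd247 lay above that upper quartile. Over 2841 genes well above background on all 4 arrays with a mean log2 signal from -4 to -2 it was 0.16 (quartiles -0.33 and 0.51), and the 0.45 of the brighter Cd8a probe lay between those quartiles. Over 2091 such genes with a mean under -4 it was 0.22, and over 3119 with a mean above 2 it was 0.07. The lists of T, NK and B cell genes below also hold many dim genes. Their medians are not set against genes of like signal.

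Across the 10 genes, 5 were called higher (Cd3d, Cd3g, Lck, Lat and Thy1), 1 lower (Cd2), 3 neither (Cd3e, Cd4 and Cd8a), and Cd247 was not measured. Set beside the 8.37% of all measured genes called higher, that was 5 of 9 measured, but Cd3d and Cd3g passed the filter only through the Bach2KO arrays. Of 313 genes above background on both Bach2KO arrays and on no WT array, 222 were called higher (70.9%). The median difference was 1.57 over the 9 measured members, 1.42 with Cd3d and Cd3g at their bounds, and 1.02 over all 10 without the filter, against 0.06 over all measured genes. Scaling to the spike-in probes lowered each difference by 0.72, turned the split of all calls from 58.7% higher to 16.5% higher, and left 2 members higher, Cd3d and Thy1, with Lck at 0.85, Lat at 1.04 and Cd3g at 2.74 no longer called. Normexp background correction, which adds an offset of 50 to every signal, ended the calls of Cd3d (1.19) and Cd3g (0.86), and kept those of Lck, Lat, Thy1 and Cd2.

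**Figure D3:**
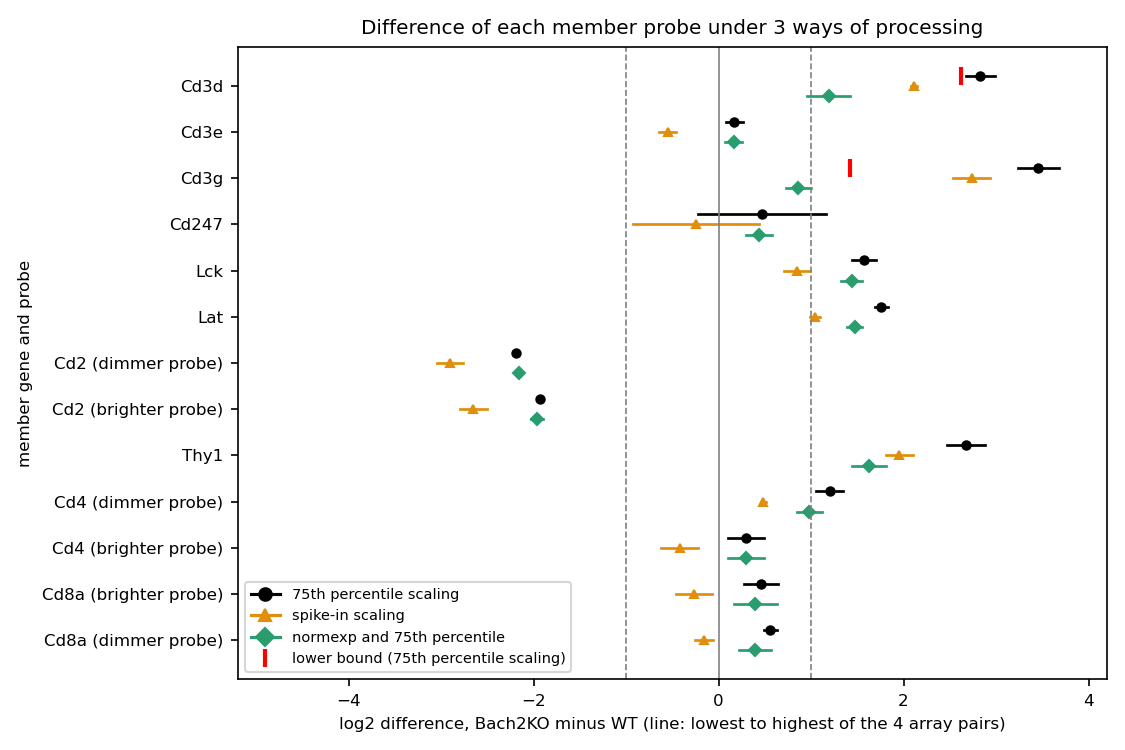
Log2 difference (Bach2KO minus WT) of each probe under 3 ways of processing, with the mean as a point, the lowest to highest array pair as a line, dashed lines at 2-fold and red ticks at the lower bounds of Cd3d (2.62) and Cd3g (1.42). Cd2 lies below the lower line throughout, while Cd3e, Cd247, the brighter Cd4 probe and both Cd8a probes change sign with spike-in scaling.

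Further genes that act behind the T cell receptor went both ways. Of 29 such genes 24 were measured, of which 5 were higher, 4 lower and 15 uncalled. The median difference was 0.26, against 0.06 over all genes. Rasgrp1, the Ras exchange factor of lymphocytes, had log2 signals of -2.80 ± 0.07 in Bach2KO and -7.36 ± 0.86 in WT (SD, n = 2 arrays), and was at least 11.7-fold higher. Skap1, an adaptor that couples the receptor to integrins, was at least 3.52-fold higher, a call lost with normexp correction (0.996). Its partner Fyb was 8.64-fold higher by a probe above background on all 4 arrays, with a log2 difference of 3.11 that normexp correction lowered to 1.97. In the other direction, Grap2, the adaptor that links LAT to SLP-76, was at -7.70 ± 0.82 in Bach2KO and -1.62 ± 0.13 in WT, and was at least 21.9-fold lower. The phosphatase gene Ptpn22 was lower, with a difference of -1.86, a call lost with normexp correction (-0.43).

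Zap70, the kinase that binds the phosphorylated CD3 ITAMs, and Csk, the kinase that inhibits Lck, are singled out after their values were seen. The brighter Zap70 probe was called higher (1.48) and the other was not (0.48). Spike-in scaling (0.76), normexp correction (1.01) and averaging the gene's probes each ended the Zap70 call. Csk was lower, with a difference of -1.48. Lcp2, the SLP-76 gene, had a difference of -0.10 and was not called. Txk, Trat1, Ubash3a, Themis and Sh2d1a, genes with roles mainly in T and NK cells, were not above background on both arrays of either genotype. With normexp correction 2 genes of the list were higher and 3 lower, and with spike-in scaling 3 were higher and 9 lower.

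Among 28 T cell surface genes 21 were measured, 5 higher, 2 lower and 14 uncalled. The median difference was 0.66. The summed signal was 8.05 to 8.22 in Bach2KO, against 4.34 to 4.49 in WT, but without Il7r, left out after the values were seen, it was 3.54 to 3.88 in Bach2KO, against 4.33 to 4.49 in WT. The largest difference was that of Il7r, a cytokine receptor chain needed for T cell survival, at least 361-fold higher. Il1rl1, a cytokine receptor of type 2 lymphocytes and mast cells, was 4.71-fold higher by the brightest of its 3 probes, while the other probes were above background on no array. Normexp correction ended the Il1rl1 call (1.11). For the costimulatory receptor gene Icos the brighter probe read 4.14-fold higher and the other differed by 0.64. Without either Bach2KO array the other probe became the brighter and the Icos call ended, and it also ended with normexp correction (1.11). Tnfrsf18, which encodes the receptor GITR, had a difference of -2.88 and the early activation antigen gene Cd69 of -1.18, both lower, and normexp correction ended the Cd69 call (-0.99). The pan-T genes Cd5, Cd6, Cd7 and Cd28 differed by 0.64, 0.94, 0.95 and 0.76 and were not called. Ctla4, Pdcd1, Cd40lg, Tigit, Lag3, Slamf1 and Cd96 were not measured.

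Of 17 transcription factor genes of T cells 15 were measured, 2 higher, 2 lower and 11 neither (median 0.45). Gata3, the regulator of T cell development and type 2 responses, was at least 4.01-fold higher, and Bcl11b, required for T cell identity, at least 2.77-fold higher by the brighter of its probes, the other being above background on no array. Both calls ended with normexp correction (1.08 and 0.72), and Bcl11b also lost its call with spike-in scaling. Id3 and Ikzf2 were lower, with differences of -2.84 and -1.47, and normexp correction ended the Ikzf2 call (-0.79). Tcf7, a defining factor of T cells, was not measured. Of 11 T helper cytokine genes 5 were measured, and Il4 alone was called, with log2 signals of -1.91 ± 0.09 in Bach2KO and -3.34 ± 0.06 in WT, 2.71-fold higher, a call lost with spike-in scaling (0.72) and with normexp followed by quantile normalization (1.01). Il5, Il13 and Ifng were not above background on both arrays of either genotype.

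**Figure D4:**
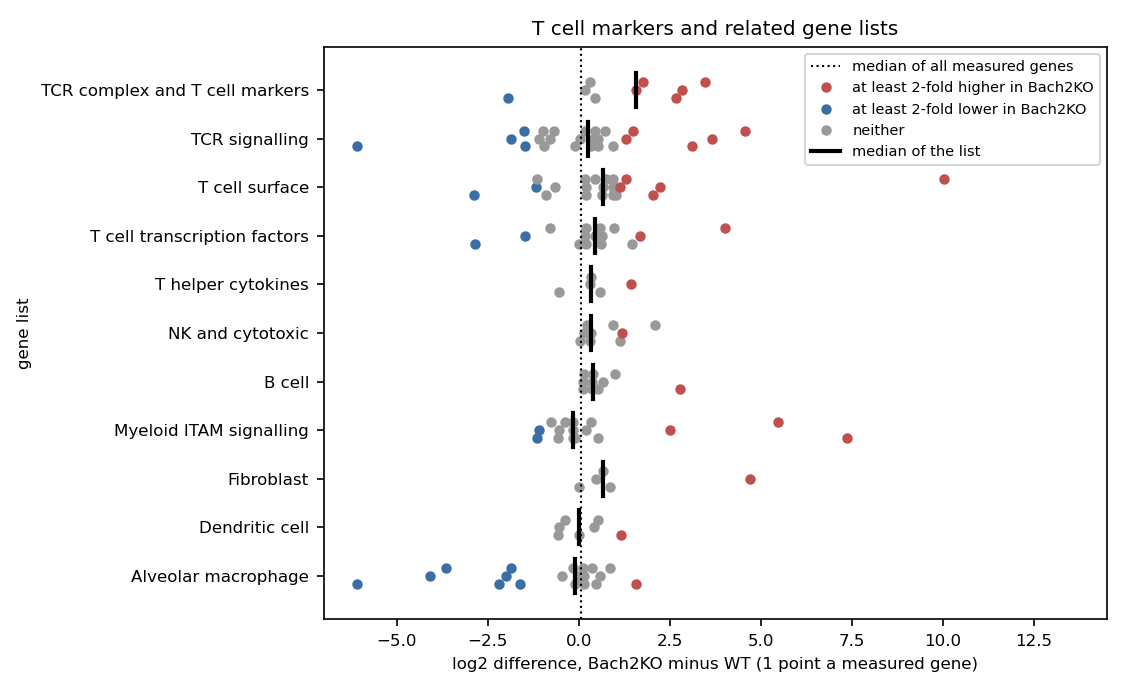
Log2 difference (Bach2KO minus WT) of each measured gene in the T cell markers and in 10 related lists, with 1 point a gene, a bar at each list's median and a dotted line at the median of all measured genes (0.06). The T cell markers have a median of 1.57, which includes Cd3d and Cd3g, genes that passed the filter only through the Bach2KO arrays. With all 4 arrays required above background that median is 0.45. The lists of T cell genes hold points on both sides of 0.

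Among markers of other lymphocytes, shares near the 8.37% of all measured genes were called higher. Of 15 NK and cytotoxic genes 9 were measured and 1 was higher, Ccl5, a chemokine made by lymphocytes and macrophages (2.26-fold). The median difference was 0.33 and the summed signal 6.54 to 6.55 in Bach2KO, against 5.92 to 6.07 in WT. The largest part of that sum was Nkg7, with mean log2 signals of 2.26 in Bach2KO and 2.23 in WT by its brighter probe. The other Nkg7 probe was above background on only 1 array of each genotype. The NK receptor gene Ncr1 was not measured. Of 13 B cell genes 10 were measured and 1 was higher, Cd79b, at least 2.62-fold, whose product forms the B cell receptor's ITAM pair with that of Cd79a (difference 0.52). The B cell median was 0.38 and the summed signal 4.05 to 4.06 in Bach2KO, against 2.90 to 2.97 in WT. Without Cd22, left out after the values were seen, the B cell sum was 0.92 to 1.07 in Bach2KO, against 0.54 to 0.63 in WT. Neither call held with normexp correction or spike-in scaling.

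The corresponding signalling genes of myeloid cells also went both ways. Of 17 genes 16 were measured, all of them well above background on all 4 arrays, 3 higher, 2 lower and 11 uncalled. The median difference was -0.15 and the summed signal 493.2 to 511.1 in Bach2KO, against 406.2 to 409.4 in WT. Without Trem2, left out after the values were seen, the sum was 421 to 433 in Bach2KO, against 393 to 396 in WT. Lat2, the LAT-like adaptor of myeloid and B cells, had log2 signals of -0.30 ± 0.03 in Bach2KO and -5.77 ± 0.63 in WT, 44.5-fold higher, with a log2 difference of 5.47 that normexp correction lowered to 3.69. Trem2, a lipid-sensing receptor that signals through Tyrobp, was 5.63-fold higher, and the adaptor gene Blnk differed by 7.37. The signalling adaptor gene Card9 was lower, with a difference of -1.14, a call lost with normexp correction (-0.88). Syk differed by 0.33 and the ITAM adaptor genes Fcer1g and Tyrobp by 0.52 and 0.19, and none of these was called, with each sign turned by spike-in scaling. Of 19 alveolar macrophage markers 7 were lower, 1 higher and 11 neither, beside 5.90% lower and 8.37% higher of all measured genes. The summed signal of these markers was 1287.8 to 1293.3 in Bach2KO, against 1623 to 1790.8 in WT. Fabp4 was the higher marker, with a difference of 1.59, a call lost with spike-in scaling (0.87). The lipid droplet gene Cidec (-6.09), the keratin genes Krt79 (-4.07) and Krt19 (-1.99), Siglecf (-3.65), the ribonuclease gene Ear1 (-2.19) and the scavenger receptor gene Marco (-1.85) were the lower markers that differed most. The macrophage antigen gene Adgre1 had a difference of -0.19 and the pan-leukocyte gene Ptprc of -0.98, and neither was called.

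Over the 4 arrays, the genes whose centred log2 signals lay nearest to the mean profile of the 7 members above background on all arrays (Cd2, Cd3e, Cd4, Cd8a, Lat, Lck and Thy1) were Fanci, Golga4, Nppa and Acot13. Their Euclidean distances were 0.021, 0.022, 0.031 and 0.037 log2 units, among 14185 genes, and their differences between 0.70 and 0.71. These members ranged from -1.93 to 2.67, so the mean profile, with a difference of 0.71, resembled none of them closely.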

How the data were processed

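Per the file headers, each array was read with Agilent Feature Extraction 10.7.3.1 (9.1 in the submitters' processing notes), which gave linear intensity per spot after background subtraction and spatial detrending. Arrays were not normalized against each other. The value table deposited by the authors holds log2 values. For probes without repeat spots, a column differed from the log2 processed signals of the matching array by a constant (SD at most 3.5e-07). The column medians were -3.53 and -3.45 for Bach2KO and -3.58 and -3.67 for WT. Genes were not centred, and higher values meant brighter probes. What set the constant, 0.09 to 0.13 from the array's 75th percentile, is not known.

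Outlier spots were left out, log2 signals of repeated spots were averaged, and the array's 75th percentile was subtracted. A probe counted as well above background if more than 50% of its spots did. Probes were named through unversioned accessions from RefSeq genes of GRCm38.p6 (26055 of 39429 matched), and the brightest probe on average stood for its gene. Probe and gene positions are left out because the array's annotation uses mm9. The promoter windows carry RefSeq's own GRCm38.p6 coordinates. For a lower bound, the dim genotype's signal was raised, on each array where it lay below, to the lowest value of any probe well above background. Python 3.11.15, R 4.3.3 and limma 3.58.1 (normexp) were used, and the size rule was tested on simulated data. The number of arrays limits the precision.

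The members and gene lists were chosen with earlier results of these data known. Named genes were the members, up to 6 called genes per list by size, Bach2, Siglecf, Ptprc, Adgre1 and the 4 nearest profiles. Other genes named were chosen after their values were seen. Some genes that this rule selects are not reported here.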

Additional observations from a re-analysis of the deposited data

How the results depend on the processing

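No paired analysis was possible because the 2 arrays of a genotype are parts of 1 RNA sample and no result comes from a test. In 17 alternatives Cd2 and Thy1 kept their calls, and Cd3e, Cd4 and Cd8a stayed uncalled by the probe that stands for the gene. Spike-in scaling, with 9 probes, gave 2 members higher, a median member difference of 0.85, 627 genes higher and 3175 lower, against 5, 1.57, 1266 and 892, and moved the median of all genes by -0.72. Median centring moved it by -0.10. Normexp gave 3 members higher, a median of 0.86 and 23 listed genes called, against 38, or 3, 0.54 and 22 when followed by quantile normalization. Requiring all 4 arrays above background removed Cd3d and Cd3g and gave 3 and a median of 0.45, and no filter on dim probes gave a median of 1.02. A 1.5-fold rule gave 2237 genes higher, 1933 lower and 58 listed genes called, and a 3-fold rule 695, 410 and 21, with 3 members higher. Leaving out each array gave 5 members higher and 1 lower each time and medians of 1.47 to 1.67. Signal over background limits Cd3d, Cd3g, Cd247 and Cd8a, and Thy1 in WT.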
